A study of Mus musculus with 4 samples.

Results

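Costimulatory receptors of the CD28 family, together with the related receptor CD226 and the B7 ligands that these receptors and their inhibitory relatives bind, were examined in cultured CD8+ T cells of the mouse. The 7 genes were *Cd28*, *Icos* and *Cd226* for receptors and *Cd80*, *Cd86*, *Cd274* (PD-L1) and *Pdcd1lg2* (PD-L2) for ligands. They were chosen by name, and they and the gene lists used below were picked with earlier results of these data known. All 7 had a probe set of their own, and the arrays held 19938 such genes in all. T cells were taken from spleen and lymph nodes of wild-type C57BL/6 mice by magnetic negative selection and cultured over 2 days. CTLs (cytotoxic T lymphocytes) were grown with IL-2 and with anti-IFN-γ to neutralise that cytokine. Tc17 cultures, in which CD8+ cells turn into IL-17 producers, received IL-6 and TGF-β on top of the same IL-2 and anti-IFN-γ. Both groups therefore had IFN-γ blocked and IL-2 added. By the study's methods Tc17 cells were primed with plate-bound anti-CD3 and soluble anti-CD28, so that CD28 itself was engaged by antibody, while the stimulus of the CTL cultures is not given in the sources used here. There were 2 arrays per group and 4 in all. The labels call the replicates biological without naming separate animals or cultures, so a p-value here reflects only the spread between these samples, which may be technical. By the study's methods the mice were of young adult age and matched for age and sex.

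A T cell that meets antigen needs a costimulatory signal beside that of its antigen receptor. CD28 gives it on naive cells after binding CD80 or CD86, while CTLA-4 binds the same ligands more tightly and restrains the response. ICOS, which binds ICOSL, is induced by activation and acts on helper and type 17 cells through PI3K. CD226 (DNAM-1) binds CD155 (the product of *Pvr*) and nectin-2 and supports killing by CD8+ T cells and NK cells, in competition with the inhibitory receptors TIGIT and CD96. PD-L1 and PD-L2 are ligands of the inhibitory receptor PD-1. The B7 ligands are best known on antigen-presenting cells, but activated T cells also carry some of them, and PD-L1 on a T cell can bind CD80 on the same membrane.

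RefSeq promoter sequences of the GRCm38.p6 build were used for 3 of the 7 genes, *Cd80*, *Cd274* and *Pdcd1lg2*. The 250 bases before the transcription start are shown for the pair of ligand genes that fell in Tc17 cells. Both lie on the plus strand, *Cd80* at chr16:38458683-38458932 and *Cd274* at chr19:29367188-29367437. Capitals mark the letters of a motif found in the window.
*Cd80*: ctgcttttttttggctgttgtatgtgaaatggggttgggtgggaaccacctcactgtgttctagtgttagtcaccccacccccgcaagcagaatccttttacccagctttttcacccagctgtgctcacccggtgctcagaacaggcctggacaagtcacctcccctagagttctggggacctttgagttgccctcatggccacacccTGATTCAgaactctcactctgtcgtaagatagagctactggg
*Cd274*: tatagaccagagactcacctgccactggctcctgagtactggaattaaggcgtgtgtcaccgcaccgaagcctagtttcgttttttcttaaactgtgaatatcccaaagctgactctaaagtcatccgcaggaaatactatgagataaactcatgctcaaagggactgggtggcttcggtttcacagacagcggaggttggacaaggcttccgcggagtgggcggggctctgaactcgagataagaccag
Motifs of factors that act downstream of the T cell receptor, cytokines and TGF-β were searched on both strands. The capitals in *Cd80* spell TGATTCA, a match to the AP-1 motif TGANTCA that starts 42 bases before the transcription start. That motif was present in 6.75% of the 32851 promoters of the same length. The STAT motif TTCNNNGAA (7.02% of the promoters), the interferon-response core GAAANNGAAA (2.98%), the NF-κB motif GGGNNTTTCC (1.41%) and the SMAD palindrome GTCTAGAC (0.167%) were not found in the *Cd80* window, and none of the 5 motifs was found in the *Cd274* or *Pdcd1lg2* window. The matches describe the letters of these windows alone.

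Tc17 cells carried more *Cd28* and less *Cd80*, *Cd226* and *Cd274* than CTLs. Values were RMA intensities, which are background-corrected, quantile-normalised and summarised per probe set, on the log2 scale, and differences are Tc17 minus CTL. In limma with Benjamini-Hochberg adjustment over the 14953 genes tested, 1 of the 7 genes was higher and 3 were lower at an adjusted p under 0.05. Over all genes tested 15.7% passed, 8.22% higher and 7.44% lower. The groups did not overlap for any of the 7 genes, 6 of which lay lower in both Tc17 arrays, against 54.4% of all genes tested without overlap and 24.8% without overlap and lower. The median log2 difference of the 7 was -0.28, beside 0.02 for all genes tested. An exact permutation test of 2 arrays against 2 cannot give a p under 0.333. In these bulk cultures a smaller number of cells with a transcript and less transcript per cell cannot be told apart.

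**Figure D1:**
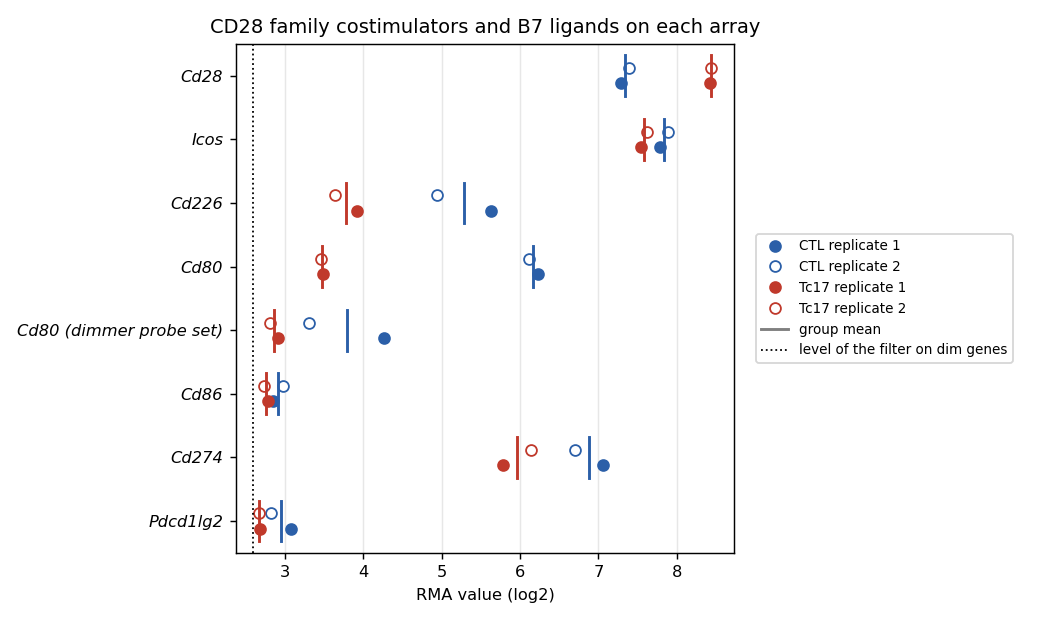
RMA values on the log2 scale (horizontal axis) of the 7 genes and of the dimmer *Cd80* probe set on each array. CTL arrays are blue and Tc17 arrays red, replicate 1 is filled and replicate 2 is open, with group means as vertical bars and the level of the filter on dim genes as a dotted line. *Cd28* is the gene whose Tc17 arrays (8.43 and 8.44) lie above its CTL arrays (7.29 and 7.39), and *Cd80* has the widest gap, from 6.11 down to 3.49.

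*Cd28*, the receptor that gives naive T cells their main costimulatory signal, measured 7.29 and 7.39 in the CTL arrays and 8.43 and 8.44 in the Tc17 arrays. Both Tc17 arrays lay above both CTL arrays, and every pairing of a Tc17 with a CTL array gave between 2.05-fold and 2.22-fold. The difference was 1.09 ± 0.13 (log2, SE of the fit, n = 2 per group), or 2.14-fold, with a 95% interval from 0.82 to 1.37 and a limma adjusted p of 1.84e-04. *Icos*, the inducible relative of *Cd28*, measured 7.79 and 7.89 in CTLs and 7.55 and 7.62 in Tc17 cells. These groups did not overlap either, but the distance between them was small, at -0.26 ± 0.13 with a 95% interval from -0.54 to 0.02, and it did not pass (limma adjusted p = 0.226). The intervals of the *Cd28* and *Icos* differences did not overlap, while the difference between the genes was not tested.

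*Cd226*, the receptor for CD155 and nectin-2 that supports killing, measured 5.63 and 4.94 in CTLs and 3.92 and 3.64 in Tc17 cells. The CTL arrays stood 0.69 apart, yet the lower of them was still 1.02 above the higher Tc17 array. *Cd226* fell by 1.51 ± 0.20 on the log2 scale, or 2.84-fold (limma adjusted p = 4.98e-04), and single pairs of arrays gave 2.03-fold to 3.98-fold. Leaving out CTL replicate 1 gave -1.16, and leaving out CTL replicate 2 gave -1.85. In a fit on every row of the table, where 1.92% of 35557 rows passed, the call was lost (limma adjusted p = 0.0677).

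*Cd80*, a ligand of CD28, CTLA-4 and PD-L1, measured 6.23 and 6.11 in CTLs and 3.49 and 3.45 in Tc17 cells by the brighter of its probe sets. Arrays of a group differed by at most 0.12, and the gap between the groups was 2.62. *Cd80* fell by 2.70 ± 0.13, or 6.49-fold, with a 95% interval from -2.98 to -2.42 (limma adjusted p = 2.93e-07), which placed it among the 0.174% of tested genes that passed and were at least 4-fold lower. The dimmer probe set, whose annotation lists 2 accessions and no curated RefSeq mRNA, measured 4.26 and 3.31 in CTLs and 2.90 and 2.80 in Tc17 cells. It pointed the same way with a smaller and less certain difference of -0.93 ± 0.32 (limma adjusted p = 0.261 over every row), which became -0.45 when CTL replicate 1 was left out and -1.41 when CTL replicate 2 was. With the mean of both probe sets *Cd80* was -1.82 ± 0.17 (limma adjusted p = 3.66e-05).

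*Cd86*, the other B7 ligand of CD28, was dim in both groups, at 2.85 and 2.97 in CTLs and 2.78 and 2.73 in Tc17 cells. All of these values lay under the lowest array median of 3.18, where background compresses differences. The difference of -0.15 ± 0.13 had a 95% interval from -0.44 to 0.13 (limma adjusted p = 0.511), and neither its absence nor equal levels can be read from values this dim.

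*Cd274*, which encodes PD-L1, measured 7.07 and 6.70 in CTLs and 5.78 and 6.14 in Tc17 cells. The groups stayed 0.56 apart, although arrays within each group differed by 0.36. *Cd274* fell by 0.92 ± 0.17, or 1.89-fold, with a 95% interval from -1.29 to -0.56 (limma adjusted p = 0.00299). The call was lost in the fit on every row of the table (limma adjusted p = 0.0987). *Pdcd1lg2*, which encodes PD-L2 and is the next protein-coding gene after *Cd274* in RefSeq order, measured 3.08 and 2.82 in CTLs and 2.68 and 2.66 in Tc17 cells. It too was under the lowest array median on all 4 arrays, and its difference of -0.28 ± 0.14, with a 95% interval from -0.58 to 0.02, did not pass (limma adjusted p = 0.223).

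**Figure D2:**
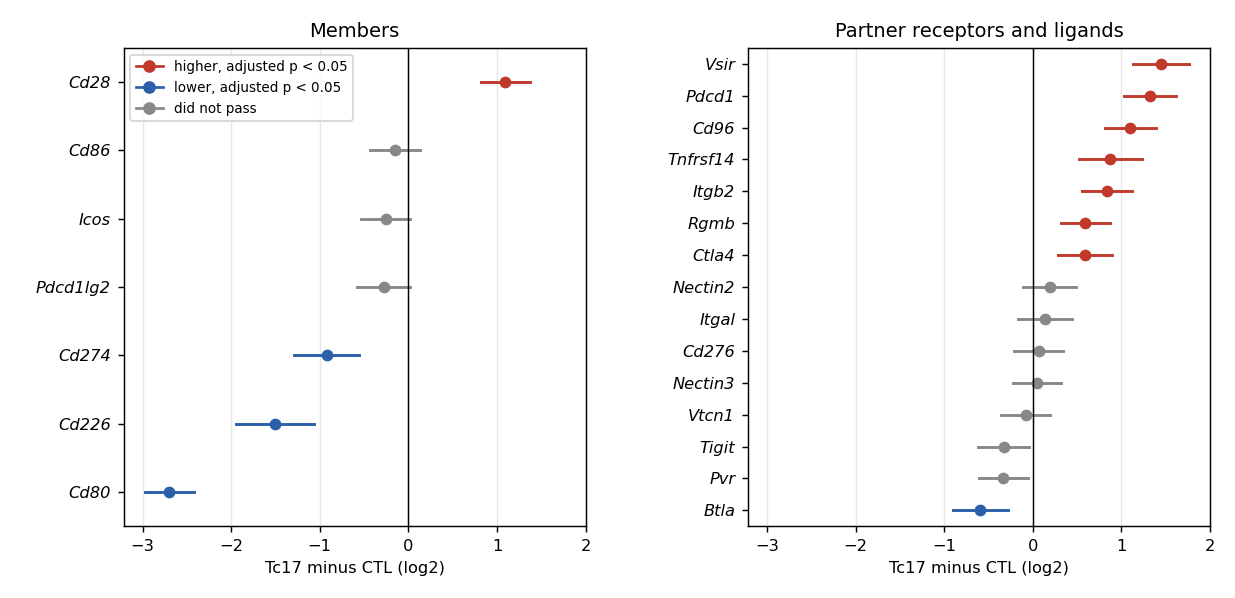
Log2 differences between Tc17 and CTL arrays (horizontal axes) with 95% intervals of the fit, for the 7 genes (left) and for 15 tested partner receptors and ligands (right). Genes past the threshold are red where higher and blue where lower, and the others are grey. *Cd80* is the farthest to the left at -2.70, and *Vsir* and *Pdcd1* are the farthest to the right at 1.45 and 1.32.

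Several receptors that share ligands with the 7 genes were higher in Tc17 cells. Of 9 further B7 family genes, receptors and binding partners, 8 were tested, and 5 were higher and 1 lower. That was 75.0% beside the 15.7% of all genes tested, with a median difference of 0.59 beside 0.02. *Ctla4*, the inhibitory receptor for CD80 and CD86, measured 9.79 and 9.61 in CTLs and 10.40 and 10.18 in Tc17 cells. It was higher by 0.59 ± 0.14 (limma adjusted p = 0.0141), and did not pass without CTL replicate 2 (0.50) or Tc17 replicate 1 (0.48). *Pdcd1*, the PD-1 receptor of PD-L1 and PD-L2, measured 6.34 and 6.44 in CTLs against 7.61 and 7.81 in Tc17 cells, and rose by 1.32 ± 0.13 (limma adjusted p = 7.05e-05). Tc17 cells thus carried more *Pdcd1* and less *Cd274*, and more *Ctla4* and *Cd28* and less *Cd80*.

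*Vsir*, which encodes the inhibitory B7 family protein VISTA, had the largest increase of the partner genes, from 6.02 and 5.86 to 7.24 and 7.54 (1.45 ± 0.14, limma adjusted p = 6.19e-05). *Rgmb*, a binding partner of PD-L2, rose from 3.13 and 3.07 to 3.72 and 3.66 (0.59 ± 0.13, limma adjusted p = 0.00807). Both CTL arrays of *Rgmb* lay under the lowest array median of 3.18, where background compresses differences, so the size of its rise is uncertain. The pair of receptors BTLA and HVEM, which bind each other, split. *Btla* fell by 0.59 ± 0.14 (limma adjusted p = 0.0149) and did not pass without CTL replicate 1 (-0.44) or Tc17 replicate 2 (-0.57), while *Tnfrsf14* (HVEM) rose by 0.88 ± 0.16 (limma adjusted p = 0.00362). *Cd276* (0.07 ± 0.13) and *Vtcn1* (-0.08 ± 0.13), further B7 ligand genes, did not pass and were under the lowest array median. *Icosl*, the ligand gene of ICOS, lay below the filter on dim genes with array values from 2.42 to 2.79.

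Around *Cd226* the competing receptor CD96 moved the opposite way. *Cd96* measured 6.41 and 6.50 in CTLs and 7.46 and 7.66 in Tc17 cells, a rise of 1.10 ± 0.13 (limma adjusted p = 2.40e-04). *Tigit*, the other competitor, was at -0.33 ± 0.13 (limma adjusted p = 0.128), and their shared ligand gene *Pvr* was at -0.33 ± 0.13 (limma adjusted p = 0.116). The ligand genes *Nectin2* (0.19 ± 0.13) and *Nectin3* (0.05 ± 0.12) did not pass. Both were under the lowest array median on every array, so neither absence nor equal levels can be read from them. Of the chains of the integrin LFA-1, with which CD226 associates, *Itgb2* rose by 0.84 ± 0.13 (limma adjusted p = 0.00112), and *Itgal* was at 0.14 ± 0.14 (limma adjusted p = 0.605). In all 7 of the 8 genes around *Cd226* were tested, of which 2 were higher and none lower, 28.6% beside the 15.7% of all genes tested. In the fit on every row of the table *Vsir*, *Pdcd1*, *Cd96* and *Itgb2* were the partner genes that passed.

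Of 23 tested genes that carry or restrain the CD28 and ICOS signals, 6 were higher and 1 was lower in Tc17 cells. That was 30.4% in all beside the 15.7% of all genes tested, and the median difference of the 23 was 0.25. *Malt1*, the protease of the CARMA1-BCL10-MALT1 complex, rose from 8.38 and 8.48 to 9.52 and 9.37 (1.01 ± 0.13, limma adjusted p = 3.89e-04). *Prkcq*, the kinase PKC-θ that CD28 brings to the synapse, rose by 0.78 ± 0.13 (limma adjusted p = 0.00236) and *Vav1*, an exchange factor downstream of CD28, by 0.77 ± 0.13 (limma adjusted p = 0.00193). The other 3 that were higher were the kinase gene *Tec* (0.68 ± 0.15), the PI3K subunit gene *Pik3ca* (0.63 ± 0.13) and *Akt2* (0.43 ± 0.13, limma adjusted p = 0.0432), named after their values were seen. *Tec* did not pass without CTL replicate 1 (0.49), *Pik3ca* without CTL replicate 2 (0.55), or *Akt2* without any of the 4 arrays (0.36 to 0.50). The single gene that fell was *Rel*, the NF-κB subunit c-Rel, from 8.55 and 8.43 to 7.87 and 7.91 (by 0.60 ± 0.13, limma adjusted p = 0.00824). It did not pass without CTL replicate 1 (-0.54). None of the 4 brakes among the 23 genes passed in limma (1 had an unadjusted p under 0.05), and their median difference was -0.19. The count of 7 signaling genes fell to 4 without CTL replicate 1, and to 1 (*Malt1*) in the fit on every row of the table.

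**Figure D3:**
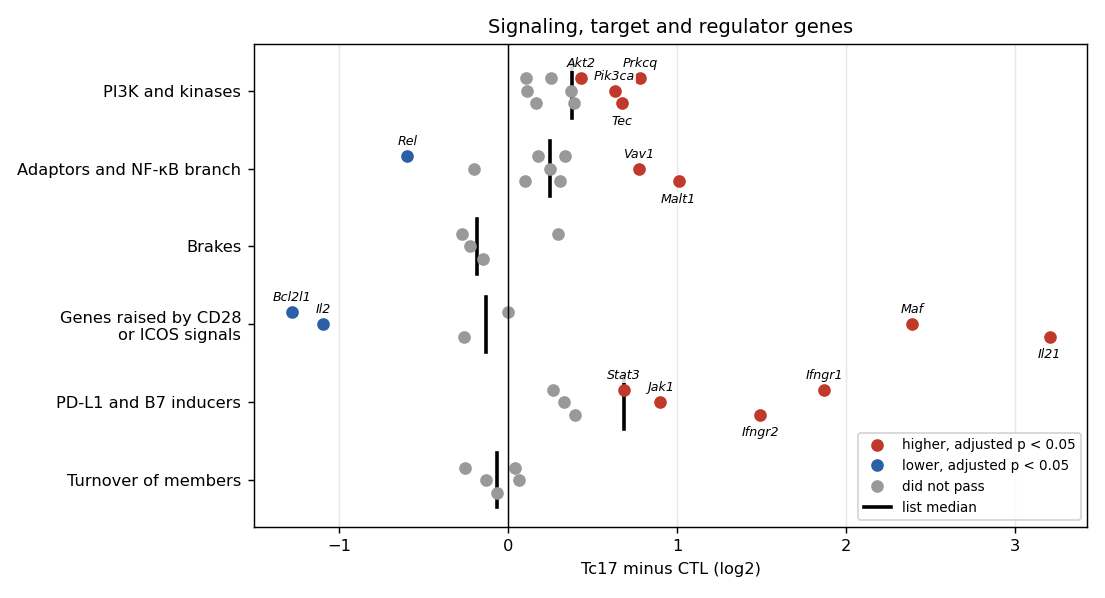
Tc17 minus CTL on the log2 scale (horizontal axis) for the tested genes of 6 lists. Points are red for higher and blue for lower genes past the threshold and grey for the rest, and black bars mark list medians. All 10 tested genes of the PI3K and kinase list lie to the right of 0, with a median of 0.38, while the genes raised by CD28 or ICOS signals spread from -1.28 to 3.21.

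Known target genes of CD28 and ICOS signals moved apart. Of 6 tested, 2 were higher and 2 lower, 66.7% beside the 15.7% of all genes tested. *Bcl2l1*, which encodes the survival protein BCL-XL that CD28 induces, measured 7.22 and 6.92 in CTLs and 5.94 and 5.64 in Tc17 cells, and fell by 1.28 ± 0.15 (limma adjusted p = 2.29e-04). *Il2*, the cytokine gene that CD28 raises most typically, measured 5.05 and 3.79 in CTLs and 3.28 and 3.38 in Tc17 cells. Its difference of -1.10 ± 0.30 (limma adjusted p = 0.0284) rested on CTL replicate 1 and no longer passed without it (-0.47), while leaving out CTL replicate 2 gave -1.72. The call was also lost without either Tc17 array (-1.04 and -1.15), with an intensity trend and robust moderation (limma adjusted p = 0.0721) and in the fit on every row. *Maf* and *Il21*, which ICOS signals raise in helper cells, rose. *Maf*, a transcription factor gene, went from 4.12 and 3.89 to 6.23 and 6.57 (2.39 ± 0.15, limma adjusted p = 2.16e-06). *Il21* rose by 3.21 ± 0.13 (limma adjusted p = 6.68e-08), to 5.36 and 5.39 in the Tc17 arrays. Both CTL arrays of *Il21* lay under the filter level of 2.59, where background compresses differences, so the size of its rise is uncertain. The study lists *Il21* among type 17 genes, and whether ICOS signals raised *Il21* or *Maf* here was not tested. *Il2ra* (-0.26 ± 0.14) and the glucose transporter gene *Slc2a1* (0.00 ± 0.16) did not pass.

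Of 7 tested genes of the pathways that induce PD-L1, 4 were higher and none lower in Tc17 cells, where *Cd274* was lower. That was 57.1% beside the 15.7% of all genes tested, and the median difference of the 7 inducer genes was 0.68. Both chains of the IFN-γ receptor rose, *Ifngr1* from 6.48 and 6.93 to 8.55 and 8.61 (1.87 ± 0.16, limma adjusted p = 2.13e-05) and *Ifngr2* by 1.49 ± 0.14 (limma adjusted p = 3.56e-05). The kinase gene *Jak1* rose by 0.90 ± 0.13 (limma adjusted p = 6.45e-04). *Stat3*, named after its values were seen, was the other gene that passed (0.68 ± 0.14, limma adjusted p = 0.00603), though not in the fit on every row. *Irf1*, the factor through which IFN-γ raises PD-L1, measured 7.19 and 7.06 in CTLs and 7.22 and 7.83 in Tc17 cells and did not pass (limma adjusted p = 0.190). Its dimmer probe set was at -0.06 ± 0.15 (limma adjusted p = 0.913 over every row). Of 5 genes that set the turnover of PD-L1, CTLA-4 or *Icos*, among them *Cmtm6* (-0.26 ± 0.14), none passed in limma, and 0 had an unadjusted p under 0.05.

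The genes with the most similar pattern were sought among all tested genes by the Euclidean distance of the 4 array values, each centred on its own mean. For *Cd28* these were *Rab27a*, a GTPase of granule release (distance 0.03), and *Add3*, which encodes a cytoskeletal protein (0.04). For *Cd226* they were *Slc6a9* (0.21) and *Isg20* (0.26), and for *Cd80* the IL-23 subunit gene *Il23a* and *Cth* (both 0.14). For *Cd274* they were *Gramd1b* (0.03) and *Nlrc5* (0.08), the transactivator of MHC class I genes. With 4 arrays such likeness rests mostly on the difference between the groups.

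Of the protein-coding neighbors of the 7 genes that were tested and are not themselves among the 7, *Ctla4* alone passed. *Cd28*, *Ctla4* and *Icos* follow each other in this order in RefSeq (GRCm38.p6), with differences of 1.09, 0.59 and -0.26, while the outer neighbors *Raph1* (-0.04 ± 0.17) and *Pard3b* (0.04 ± 0.13) did not pass. Beside *Cd274* and *Pdcd1lg2*, *Plgrkt* was at 0.14 ± 0.13 and *Ric1* at 0.41 ± 0.13 (limma adjusted p = 0.0562). *Timmdc1* next to *Cd80* (-0.33 ± 0.15) and *Rttn* next to *Cd226* (-0.10 ± 0.17) did not pass. These neighbors were taken by position.

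Because B7 ligands are typical of antigen-presenting cells, markers of such cells were measured on the same arrays. All 6 CD8 T cell markers lay above the lowest array median, with *Cd8a* at 9.21 and 9.53 in CTLs and 10.00 and 10.08 in Tc17 cells, and *Cd3d*, *Cd3e* and *Cd8a* were higher and *Cd2* lower in Tc17 cells. *Cd8a* did not pass without CTL replicate 1 (0.51) or Tc17 replicate 2 (0.63), nor *Cd2* without any of the 4 arrays (-0.49 to -0.44), and in the fit on every row no marker passed. Of 8 macrophage or dendritic cell markers 7 had means under the lowest array median, and the sum of their linear intensities was 62.9 and 60.7 in CTLs and 84.0 and 73.2 in Tc17 cells, led by *Cd68*, which rose by 1.01 ± 0.17 (limma adjusted p = 0.00236). Of the 5 of these markers that were tested, 4 had a difference above 0 and 1 below, and *Cd68* alone passed. Whether such cells contributed to the *Cd80* or *Cd274* values was not tested. Of 4 B cell markers 3 had means under the lowest array median, none passed in limma (1 had an unadjusted p under 0.05), and their sum was 52.9 and 42.0 in CTLs and 56.1 and 54.0 in Tc17 cells. The brightest, *Cd79b*, measured 4.78 and 4.53 in CTLs and 5.14 and 5.02 in Tc17 cells. Both NK cell markers lay below the filter.

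The CTL arrays differed from each other in some markers. CTL replicate 1 was above CTL replicate 2 in the B cell markers *Cd79a* (3.25 against 2.54), *Ms4a1* (3.05 against 2.36) and *Cd79b* (4.78 against 4.53). All 4 MHC class II genes went the same way, *Cd74* (4.97 against 4.13), *H2-Eb1* (4.45 against 3.74), *H2-Aa* (3.64 against 2.91) and *H2-Ab1* (6.44 against 5.97). Their sum of linear intensities was 152.2 against 101.2. Other markers went the opposite way, among them *Pax5* (2.92 against 3.01), *Itgax* (2.68 against 2.85) and *Lyz2* (2.32 against 2.77), all under the lowest array median of 3.18. The Tc17 arrays differed too, with replicate 1 higher in *H2-Aa* (3.44 against 2.89) and *H2-Eb1* (3.97 against 3.37) and lower in *H2-Ab1* (7.11 against 7.40). *Cd74* was lower in Tc17 cells by 0.96 ± 0.22 (limma adjusted p = 0.0127), a value of -0.54 that no longer passed without CTL replicate 1, of -0.89, not past the threshold, without Tc17 replicate 2, and of -1.38 without CTL replicate 2, whereas *H2-Ab1* rose by 1.05 ± 0.17 (limma adjusted p = 0.00171). *Cd226*, *Cd274* and the dimmer *Cd80* probe set were also higher in CTL replicate 1. Without that array the brighter *Cd80* probe set was at -2.64, the dimmer one at -0.45, *Cd226* at -1.16 and *Cd274* at -0.74. Of the CD4 T cell markers, *Cd4* was at 3.21 and 2.92 in CTLs and 3.28 and 2.83 in Tc17 cells, and *Zbtb7b*, a factor of CD4 lineage cells, fell by 0.63 ± 0.14 (limma adjusted p = 0.00923) and did not pass without CTL replicate 2 (-0.53) or Tc17 replicate 2 (-0.54). The part of other cells in the values of the 7 genes was not tested beyond these measurements.

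**Figure D4:**
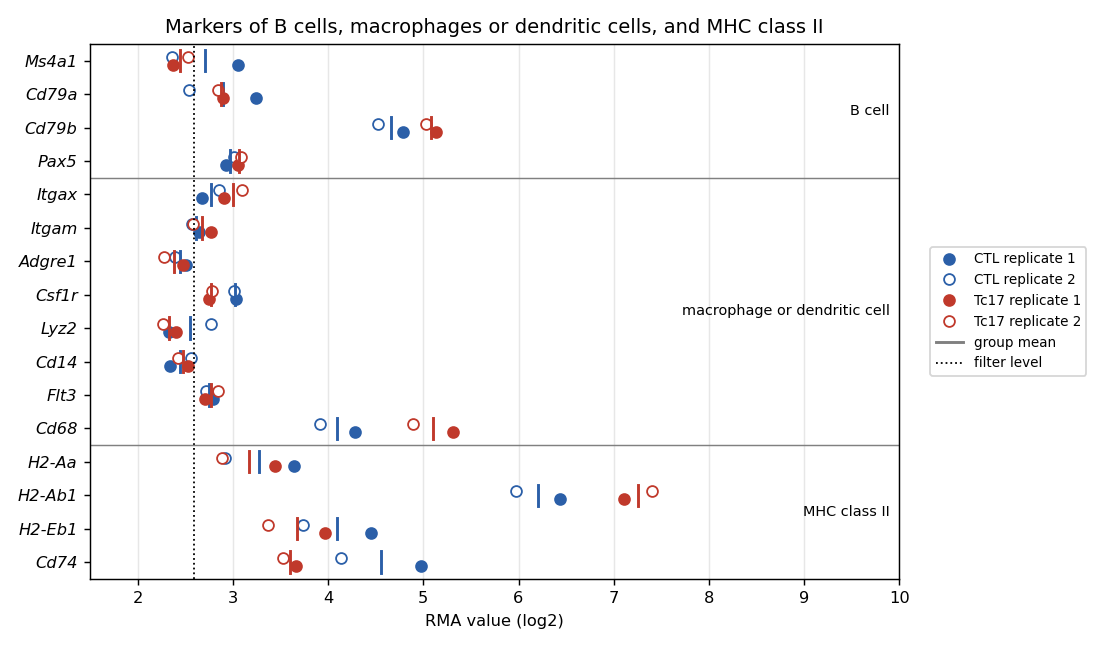
RMA values on the log2 scale (horizontal axis) of B cell, macrophage or dendritic cell, and MHC class II markers on each array, in the colors and symbols of the plot of the 7 genes, with group means as vertical bars and the filter level dotted. Most markers lie near the filter level of 2.59, except for *Cd79b*, *Cd68* and MHC class II genes such as *H2-Ab1* (6.44 and 5.97 in CTLs, 7.11 and 7.40 in Tc17 cells).

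**Figure D5:**
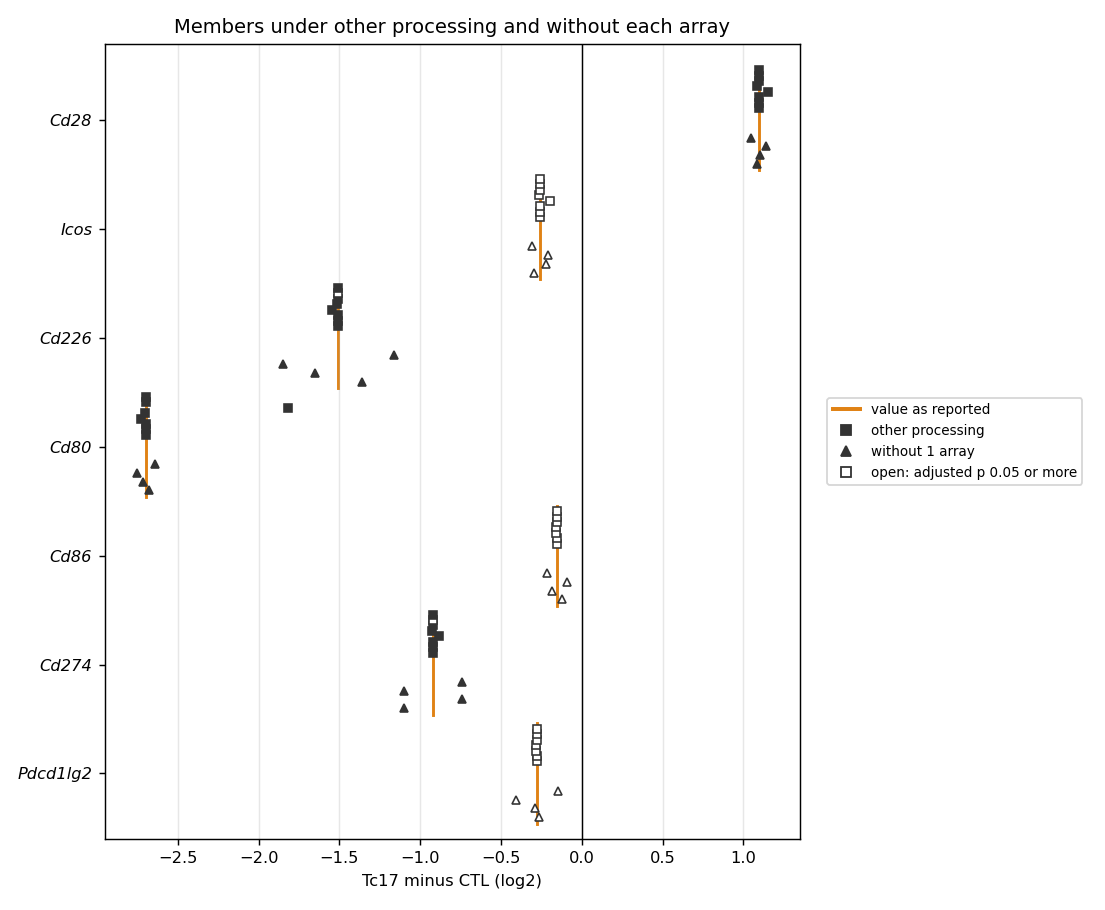
Tc17 minus CTL on the log2 scale (horizontal axis) for the 7 genes as reported (orange bars), under other processing (squares) and without each array in turn (triangles), filled where the adjusted p was under 0.05. No gene changed its direction. *Cd80* ranged from -2.76 to -1.82, the latter with the mean of its probe sets, and *Cd226* from -1.85 to -1.16.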

How the data were processed

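RNA of each sample was amplified by 2-cycle cDNA synthesis and put on 1 whole-transcript array. RMA values, taken as log2, are what the authors deposited, with version, settings and log base not given in the sources. Their range is 1.18 to 13.7. Quantile normalisation hides a shift of all transcripts, and there are no detection calls.

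Of 35557 rows, 21789 had 1 gene symbol in the platform annotation. The probe set with the highest mean was taken for each of 19938 genes, and 4985 genes under the 25th percentile (2.59) were left out. The comparison was Tc17 minus CTL with lmFit and eBayes of limma 3.58.1 (R 4.3.3), unpaired, two-sided, with Benjamini-Hochberg adjustment over 14953 genes. eBayes moves the variance of each gene toward that over all genes, with 8.98 prior against 2 residual degrees of freedom. For a gene with a wide spread, such as *Cd226* or *Il2*, the SE is therefore smaller than its own arrays would give. The fit was run on data simulated from its own fitted variance model, which checks the code but cannot show whether that model holds for these arrays. Correlations over genes were 0.993 within each group and 0.967 to 0.973 between groups. Levels are single arrays, and the number of arrays limits the precision.

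The 7 genes and all lists were chosen with earlier results of these data known. Named were the 7 genes, all partner genes, per pathway family up to 3 genes each way past the threshold, 2 genes of most similar pattern per member past it, and of each marker list the brightest gene and those past the threshold. Others were named after their values were seen. Some listed genes without a probe set of their own are not analysed here. Alternatives were each array left out, the replicate block, a fit on every row, probe sets averaged per gene, median centring, cyclic loess, robust moderation with an intensity trend, and no filter or one at the median. Plots used matplotlib 3.10.9.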

Additional observations from a re-analysis of the deposited data

How the results depend on the processing

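None of the 7 genes changed direction under any alternative. In the fit on every row of the table *Cd226* (-1.51, limma adjusted p = 0.0677) and *Cd274* (-0.92, limma adjusted p = 0.0987) no longer passed, so that 2 of the 7 genes passed, together with 4 partner genes and 1 signaling gene. The counts of target and regulator genes moved by less than 1.5 times. That fit adjusts over more rows and estimates another prior, and the cause was not tested further. Over all features 2342 of 14953 genes passed as reported and 684 rows in that fit, and 1421 genes without Tc17 replicate 2, 1538 without CTL replicate 1. Leaving out 1 array gave 4 to 6 signaling genes, 7 partner genes and, in each case, 4 of the 7 genes. *Itgal* ranged from -0.0065, a turned direction, without Tc17 replicate 2 to 0.28 without Tc17 replicate 1. Same-numbered arrays did not deviate together (correlation over genes 0.02), so the replicate numbers were not taken as pairs. With the replicate block 4 of the 7 genes, 8 partner genes and 6 signaling genes passed, where *Akt2* was lost (limma adjusted p = 0.0512), beside 2322 genes in all. *Cd86* and *Pdcd1lg2* lay below a filter at the median. With 2 arrays per group the smallest exact permutation p is 0.333, and a fit without an array assumes that the lone array of its group varies like the other group.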
